A study of Mus musculus with 67 samples.

Results

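The cytosolic ribosomal protein genes encode the protein shell and working surfaces of the ribosome in the cytoplasm. They were taken by name: every gene of the 2 deposited expression tables whose Ensembl identifier maps to a mouse symbol of the Rpl, Rps or Rplp series, plus Rpsa and Fau, with pseudogenes, ribosomal S6 kinases and mitochondrial ribosomal proteins left out. This gave 82 genes among the 16714 of the retinal pigment epithelium (RPE) table and 81 among the 16930 of the Retina table. Proteins of the small (40S) subunit account for 33 of them in RPE and in Retina, and those of the large (60S) subunit for 49 in RPE and 48 in Retina. Rpl3l was in the RPE table only, and Rpl10l and Rpl39l, which also meet the naming rule, were in neither table. All members passed the filter on low values, which asked for 3 libraries with 1 CPM or more. The lowest of those that passed were Rpl24, at 1 CPM or more in 15 of 16 RPE and 15 of 17 Retina libraries, Rpl32l in 15 of 17 Retina libraries and Rpl3l in 11 of 16 RPE libraries.

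The 33 RNA libraries came from mice on the C57BL/6J background that lack Abca4 and Rdh8 (abca4-/- rdh8-/-), the genes of a retinal transporter and a retinol dehydrogenase of photoreceptors that clear all-trans-retinal after light. The RPE set holds 5 NB libraries, 3 at 6h, 4 at 1d and 4 at 3d, and the Retina set 6 NB libraries, 3 at 6h, 4 at 1d and 4 at 3d. The labels leave NB, the baseline here, unexpanded, and state neither the zero point of the times nor the age of the mice. Every group carries both deletions, so no comparison here is between genotypes, and per the labels the 2 eyes of a mouse were pooled. RPE cells were shaken off the eyecup before the choroid was removed. Apart from the pooled eyes the labels do not say how replicates were separated, so the p-values measure the spread between these libraries.

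A ribosome joins a small subunit, which reads the mRNA, to a large subunit, which forms the peptide bond, and cells make most of its proteins in matched amounts. The mRNAs of these proteins typically start with a C followed by an unbroken stretch of pyrimidines, the 5' terminal oligopyrimidine (TOP) tract, through which mTORC1 and the binding protein LARP1 control their translation and stability. Several ribosomal proteins have a further role when ribosome assembly is disturbed, since free Rpl5 and Rpl11 bind Mdm2 and thereby stabilise p53.

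Stretches near the start of 12 members are shown because the tract at the start of the mRNA is the sequence feature that these genes are known to share, and because these 12 cover both the members that changed most and members that did not. Each line holds 30 bases near the annotated start on the gene's own strand, from the RefSeq promoter windows of build GRCm38.p6. The tract of Rps2 begins 27 bases after the annotated start, which its line does not reach, and that of Rps15 begins 19 bases before it, while the other 6 tracts begin within 5 bases of it; capitals mark a tract, defined as a C followed by at least 6 further C or T bases, and lines without capitals hold none.
Rps2 (chr17:24720080-24720109, + strand): tataaattgtCCCTTCCgcggcgcctccct
Rpl18 (chr7:45718062-45718091, + strand): tcgcaggccgCTCTTTCCCCgcccactccg
Rps9 (chr7:3704026-3704055, + strand): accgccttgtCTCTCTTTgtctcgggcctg
Rps6 (chr4:86857349-86857378, - strand): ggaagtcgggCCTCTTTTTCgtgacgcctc
Fau (chr19:6057934-6057963, + strand): cgcgcccccaCTTCTTCCTCTTTCTTgact
Rpl28 (chr7:4792953-4792982, + strand): cctctcgtgtCTCTCTTTCCgtctccggcc
Rps15 (chr10:80292402-80292431, + strand): tggaggcgggCCCTCCCggcagagctcgcg
Rps10 (chr17:27635228-27635257, - strand): gccgcgcacgCCCCTTCCTTTCCagcctcc
Rpl12 (chr2:32961700-32961729, + strand): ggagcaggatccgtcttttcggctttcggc
Rpl41 (chr10:128549151-128549180, - strand): acgggccggctcggaagtgacgacaccgag
Rpl10 (chrX:74270804-74270833, + strand): gttacagtggaagataggccgcctatataa
Rpl22 (chr4:152325714-152325743, + strand): gccctgggaaaagcaatagctggccgatcg
RefSeq windows from 250 bases before to 50 bases after a start were at hand for 60 of the 82 members, 72 windows in all. A tract that began between 20 bases before and 30 bases after the annotated start was present on the gene strand in 46 of the 72 windows (63.9%), and in 24.1% of the 32851 windows of all genes. On the opposite strand the same search found one in 16.7% of the members' windows and 28.7% of all windows. The stretch CCGGAAG, the core that ETS-family factors bind, lay on either strand in 34.7% of the members' windows against 8.86% of all windows, and AAGATGG, the core of YY1 sites, in 16.7% against 6.34%. A match is a match of letters and does not show that a factor binds there.

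Rplp0 is shown at greater length because it had the largest change of all members in Retina. The 150 bases around its annotated start carry TATAAA, the TATA box, in capitals, which begins 17 bases after that start; TATAAA occurred on either strand in 9.72% of the members' windows and in 13.6% of all windows.
Rplp0 (chr5:115559347-115559496, + strand): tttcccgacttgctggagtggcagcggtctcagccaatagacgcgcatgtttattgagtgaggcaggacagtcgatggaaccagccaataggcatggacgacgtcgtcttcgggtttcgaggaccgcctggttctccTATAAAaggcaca

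Values are CPM on the authors' effective library sizes, and the reads recovered from them numbered 11.5 to 26.8 M per RPE library and 9.45 to 32.4 M per Retina library. The 6h libraries and 1 RPE and 2 Retina NB libraries (named A here) form a deeper set, of 23.1 to 26.8 M reads in RPE and 22.6 to 32.4 M in Retina, and the other NB libraries (named B), 1d and 3d a shallower one. Comparisons of 1d and 3d with NB, and of 6h with NB, therefore cross depth sets in part. The deleted genes still had reads, Rdh8 at 2.43 to 9.10 CPM in RPE and 29.5 to 49.0 CPM in Retina, and Abca4 at 153 to 304 CPM in RPE and 357 to 928 CPM in Retina. The tables do not show which exons these reads cover and every group has the same genotype, so they do not check the labels. The summed CPM of 16 rod markers was 4290 to 18118 in RPE libraries and 24407 to 85885 in Retina libraries, and that of 16 RPE markers, of which Best1 was not in the Retina table, was 11264 to 34040 in RPE libraries and 638 to 1382 in Retina libraries. The labelled tissues therefore carry their own markers, and RPE libraries also hold rod RNA.

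Ribosomal protein genes made up a larger share of the reads in RPE than in Retina. In NB they took 3.16% of the reads of a library in RPE and 0.953% in Retina, and their summed level was 32485 ± 6055 CPM in RPE (SD, n = 5) and 10086 ± 329 CPM in Retina (SD, n = 6). Over the 81 members in both tables the median ratio of the NB means, RPE over Retina, was 3.13, with quartiles of 2.63 and 3.97; over all 15105 genes tested in both tissues the median ratio was 0.786. The libraries of the 2 tissues did not overlap for 78 members, higher in RPE for 77 and lower in RPE for 1. The tables were normalized separately, so these ratios are descriptions and were not tested.

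The member with the highest ratio was Rplp0, the core protein of the stalk that recruits elongation factors to the 60S subunit. It stood at 898, 1548, 1539, 1946 and 1479 CPM in the RPE NB libraries, and at 136 (lowest), 161 (median) and 174 CPM (highest) in the 6 Retina NB libraries, a ratio of 9.44. Rps27l, a paralogue of Rps27 that p53 induces, followed with 43.7 ± 6.66 CPM in RPE (SD, n = 5) and 7.40 ± 1.03 CPM in Retina (SD, n = 6), a ratio of 5.90. Rpl41 (5.66), Rps12 (5.52) and Rpl10 (5.41), a protein added late in the maturation of the 60S subunit, came next. Rps10, a protein at the mRNA entry side of the 40S subunit, was the 1 member that was lower in RPE, with 3.63 ± 0.374 CPM in RPE and 5.68 ± 1.05 CPM in Retina (SD, n = 5 and 6, ratio 0.638). Rpl24, Rpl13a and Rps4l had ratios of 1.02, 1.16 and 1.17, and their libraries overlapped between the tissues. RefSeq lists Rps4l as a transcribed pseudogene and Rpl6l as a pseudogene, although both meet the naming rule. Levels are not ranked between genes because coding lengths were not used here, and because ribosomal protein mRNAs have near-identical pseudogene copies and the counting of reads that match several copies is not given in the sources used here, so each gene's level is uncertain to that degree.

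**Figure D1:**
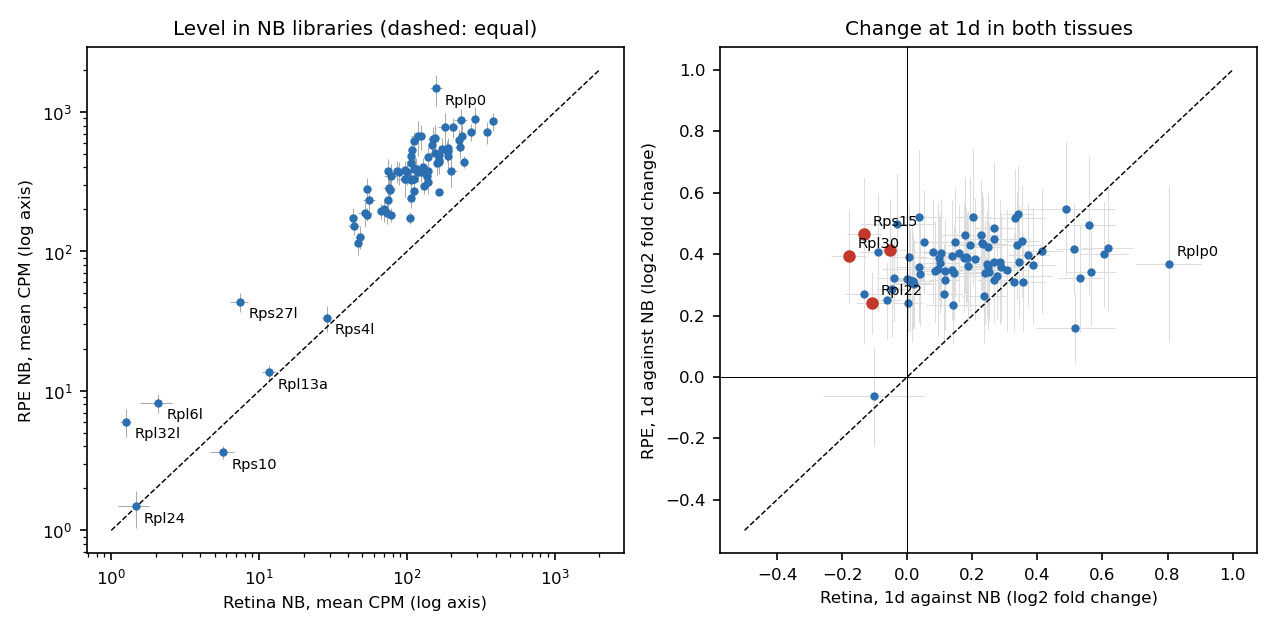
Left, mean CPM of 81 ribosomal protein genes in NB libraries, RPE (vertical, log axis) against Retina (horizontal, log axis), with SD bars (n = 5 and 6) and a dashed line of equal levels; most lie above the line and Rps10 below it. Right, log2 fold change at 1d against NB in RPE (vertical) against Retina (horizontal) with standard errors; red points, Rps15, Rpl22 and Rpl30 labelled among them, are genes whose changes differed between the tissues at an adjusted p under 0.05.

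The members moved together from library to library, more tightly in RPE. After each gene's group mean was taken off, the median correlation over 3321 pairs of members was 0.94 in RPE (16 libraries) and 0.61 over 3240 pairs in Retina (17 libraries), while the mean over pairs of all genes was 0.0075 in RPE and 0.0013 in Retina. These pairs share libraries, depth and normalization, and the values are descriptions. Without the libraries NB A1 and 3d 2 the RPE value was 0.88 over 14 libraries, and without 1d 3 and 3d 2 the Retina value was 0.43 over 15 libraries. In RPE 73 of the 82 members correlated at more than 0.9 with the mean of the others, and 3 at less than 0.5: Rps10 (0.28), Rpl24 (0.30), a protein at the bridge between the subunits, and Rpl3l (-0.78), the paralogue of Rpl3 used in striated muscle. In Retina 11 of 81 exceeded 0.9 and 10 lay under 0.5, with Rps10 (-0.05), Rps15a (0.11), Rpl13a (0.25), Rpl24 (0.27), Rpl10a (0.28) and Rps4l (0.34) at the low end. In RPE NB the means of Rps10, Rpl24 and Rpl3l were only 3.63, 1.48 and 2.49 CPM. In Retina NB those of Rps10, Rpl24 and Rpl13a were 5.68, 1.46 and 11.7 CPM, and those of Rps15a, Rpl10a and Rps4l 166, 200 and 28.7 CPM. The part of low counts in these correlations was not tested.

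The balance between the subunits stayed within a narrow range. The summed CPM of 60S members divided by that of 40S members lay between 1.46 and 1.51 in the 16 RPE libraries and between 1.42 and 1.49 in the 17 Retina libraries, with a mean of 1.48 in each of the 4 RPE groups and of 1.45 in NB, 1.48 at 6h, 1.45 at 1d and 1.46 at 3d in Retina.

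**Figure D2:**
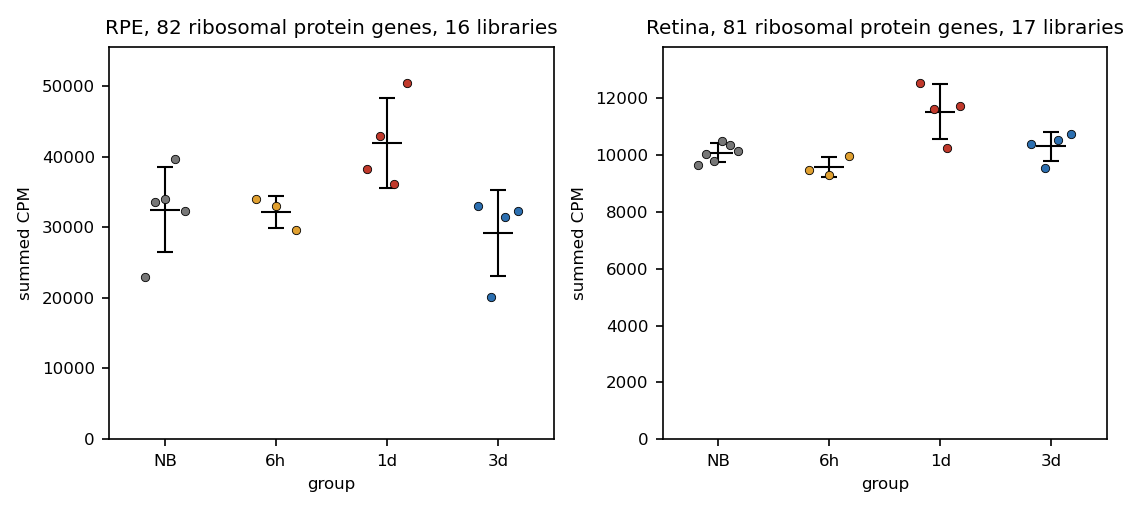
Summed CPM of the ribosomal protein genes in each library (points) by group, with mean and SD, for RPE (left) and Retina (right); both vertical axes start at 0 and differ in scale. The 1d groups have the highest means, 41907 CPM in RPE and 11539 CPM in Retina, and the RPE libraries NB A1 and 3d 2 are the lowest of their groups.

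In Retina the summed level was 10086 ± 329 CPM in NB (SD, n = 6), 9591 ± 349 CPM at 6h (n = 3), 11539 ± 956 CPM at 1d (n = 4) and 10309 ± 520 CPM at 3d (n = 4). The 4 libraries at 1d had 12558, 11619, 10250 and 11728 CPM, against 9640 to 10509 CPM in NB. Library 1d 3 lay within the NB range and the other 3 above it. Of the 81 members, 61 (75.3%) had their highest group mean at 1d and 52 (64.2%) their lowest at 6h, against 25.7% and 25.8% of all 16926 genes tested.

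At 6h in Retina 11 members were lower than in NB at an adjusted p under 0.05, and 0 were higher (limma with Benjamini-Hochberg adjustment over all 16926 genes). Of all genes 18.5% were called lower and 16.9% higher, so the 11 of 81 are a smaller share than the background. At an unadjusted p under 0.05 the members higher were also 0, against 3576 of all 16926 genes. edgeR and DESeq2 on the recovered reads called 0 members higher and 13 and 11 lower. Among the members 8 of the 11 belong to the 40S subunit, and the median over all 81 was -0.06, with a median of 0.00 over all genes. The libraries did not overlap for 9 members, all lower at 6h, with 18.5% of all genes lower in this way.

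The member with the smallest adjusted p was Fau, whose product is a ubiquitin-like protein fused to the 40S protein S30. It had 84.0, 78.8 and 81.1 CPM at 6h, against 88.6 (lowest), 109 (median) and 116 CPM (highest) in NB. Every 6h library lay under every NB library, a log2 change of -0.39 (SE 0.08, adjusted p = 0.000925, limma with Benjamini-Hochberg adjustment). Rpl29 had 79.2, 76.5 and 80.4 CPM at 6h and 83.9 to 108 CPM in NB (log2 -0.29), also without overlap. Rps4l fell most on the log2 scale, by 0.42 to 21.6 ± 4.28 CPM at 6h (n = 3), against 28.7 ± 2.06 CPM in NB (n = 6). Others were Rpl37a (-0.21), Rps14 (-0.21), Rps3 (-0.20), which lines the mRNA entry channel, Rps23 (-0.20), which reaches into the decoding centre, Rps29 (-0.20), Rpl14 (-0.19) and Rps25 (-0.18). Against the 2 NB libraries of the same depth set alone, 0 members were called lower, 1 was called higher and the median was -0.04.

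At 1d in Retina 48 of 81 members rose and 2 fell (limma, adjusted p under 0.05), where 24.0% of all genes were called higher and 27.5% lower. The rise covered 17 of 33 genes of the 40S subunit and 31 of 48 of the 60S subunit. The median log2 change was 0.18 over the members and -0.01 over all genes, and the members' quartiles were 0.04 and 0.29. The groups did not overlap for 20 members, all higher at 1d, with 16.3% of all genes higher in this way.

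The stalk and its base gave some of the largest changes, and all of its 4 proteins rose. Rplp0 had 321, 263, 226 and 292 CPM at 1d, against 136, 161 and 174 CPM as the lowest, median and highest of NB. All 4 libraries at 1d exceeded all 6 of NB, and the log2 change was 0.80 (SE 0.10, adjusted p = 1.46e-06, limma with Benjamini-Hochberg adjustment). Rpl12, which anchors the stalk base, had 171, 148, 123 and 152 CPM at 1d and 92.8, 97.3 and 101 CPM as the lowest, median and highest of NB, again without overlap (log2 0.61, SE 0.07, adjusted p = 1.11e-06, same test). Rplp1 and Rplp2, the paired acidic proteins at the stalk tip, changed less, by 0.25 and 0.34. Rplp2 had 102, 96.0, 85.2 and 109 CPM at 1d and 71.0 to 84.5 CPM in NB, while Rplp1 overlapped NB, with 325, 275, 232 and 275 CPM at 1d and 191 to 253 CPM in NB.

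Proteins of the 40S subunit at the mRNA channel did not move as a block. Rps2 had 315, 275, 241 and 281 CPM at 1d, against 153, 187 and 198 CPM as the lowest, median and highest of NB, with no overlap (log2 0.62, SE 0.08, adjusted p = 2.2e-06, limma with Benjamini-Hochberg adjustment). Rps9, a neighbour of the channel, rose by 0.36 and overlapped NB in library 1d 3 (213, 189, 160 and 200 CPM at 1d, 138 to 161 CPM in NB). Rps3 was at 246 ± 13.4 CPM at 1d and 227 ± 16.6 CPM in NB (log2 0.11, adjusted p = 0.0865, same test) and Rps23 at 112 ± 9.71 CPM and 106 ± 6.11 CPM (0.08), neither past the threshold. Rps15, which touches the decoding site, was 1 of the 2 members that fell, with 173, 168, 166 and 175 CPM at 1d and 164, 193 and 202 CPM as the lowest, median and highest of NB. Its groups overlapped and its log2 change was -0.13 (SE 0.05, adjusted p = 0.0419, same test); with values scaled to library totals it was 0.04.

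Elsewhere in the 40S subunit, Rpsa, also known as the laminin receptor precursor, had 431, 389, 332 and 382 CPM at 1d and 266, 291 and 302 CPM as the lowest, median and highest of NB (log2 0.42). Rps4x, the X-linked form of S4, had 299, 285, 220 and 266 CPM at 1d and 197 to 215 CPM in NB (0.37). Neither overlapped. Rps27a, made as a fusion with ubiquitin, had 187, 181, 163 and 169 CPM at 1d and 128 to 145 CPM in NB, also without overlap (0.34, adjusted p = 2.89e-06, limma with Benjamini-Hochberg adjustment). The other ubiquitin-type fusion, Fau, did not pass the test, at 109 ± 5.60 CPM at 1d (n = 4) and 107 ± 11.0 CPM in NB (n = 6). Rps6, the protein that S6 kinases phosphorylate, rose by 0.16, with 187, 176, 161 and 190 CPM at 1d and 150 to 169 CPM in NB.

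In the body of the 60S subunit, Rpl10 had 204, 177, 154 and 185 CPM at 1d, against 117, 123 and 132 CPM as the lowest, median and highest of NB (log2 0.53, SE 0.07, adjusted p = 2.21e-06, limma with Benjamini-Hochberg adjustment). Rpl18 had 149, 126, 118 and 132 CPM at 1d and 77.2 to 99.1 CPM in NB (0.57), and Rpl41, the smallest ribosomal protein, 190, 165, 161 and 185 CPM at 1d and 101 to 132 CPM in NB (0.56). Rpl36a rose by 0.51, to 62.3 ± 5.86 CPM at 1d, against 43.3 ± 1.44 CPM in NB. None of these 4 overlapped between the groups. Rpl39, which lines the exit tunnel, rose by 0.33 with overlap, and Rpl3, at the peptidyl transferase centre, by 0.15. Rpl30 was the other member that fell, to 110, 95.1, 87.9 and 102 CPM at 1d, against 104, 112 and 117 CPM as the lowest, median and highest of NB (-0.18, adjusted p = 0.00882, same test).

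Of 5 members gathered here for a known link to p53 or Mdm2, 3 rose, a share near that of all members (48 of 81), with 24.0% of all genes called higher. Rpl11 rose by 0.23, at 145, 132, 115 and 143 CPM at 1d and 107 to 119 CPM in NB, and Rpl23, which also binds Mdm2, rose by 0.23, at 169, 176, 141 and 165 CPM at 1d and 132 to 148 CPM in NB. Rpl5, the partner of Rpl11 in the 5S particle, did not pass the test, with 196 ± 11.0 CPM at 1d and 189 ± 8.02 CPM in NB (log2 0.05, adjusted p = 0.358, limma with Benjamini-Hochberg adjustment), and neither did Rpl26, which binds p53 mRNA, with 141 ± 14.8 CPM and 139 ± 6.81 CPM (0.02, adjusted p = 0.797). Rps27l rose, with 13.2, 10.9, 8.29 and 11.0 CPM at 1d and 5.53, 7.69 and 8.45 CPM as the lowest, median and highest of NB (0.52, adjusted p = 0.00144, same test); library 1d 3 lay within the NB range.

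The authors' deposited table has 1 member with a Benjamini-Hochberg adjusted p under 0.05 in Retina at 1d, Rplp0, with a log2 fold change of 0.81 and an adjusted p of 0.0138, and 0 members in the other 5 contrasts with NB; the kind of test behind its p-values is not given in the sources used here.

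**Figure D3:**
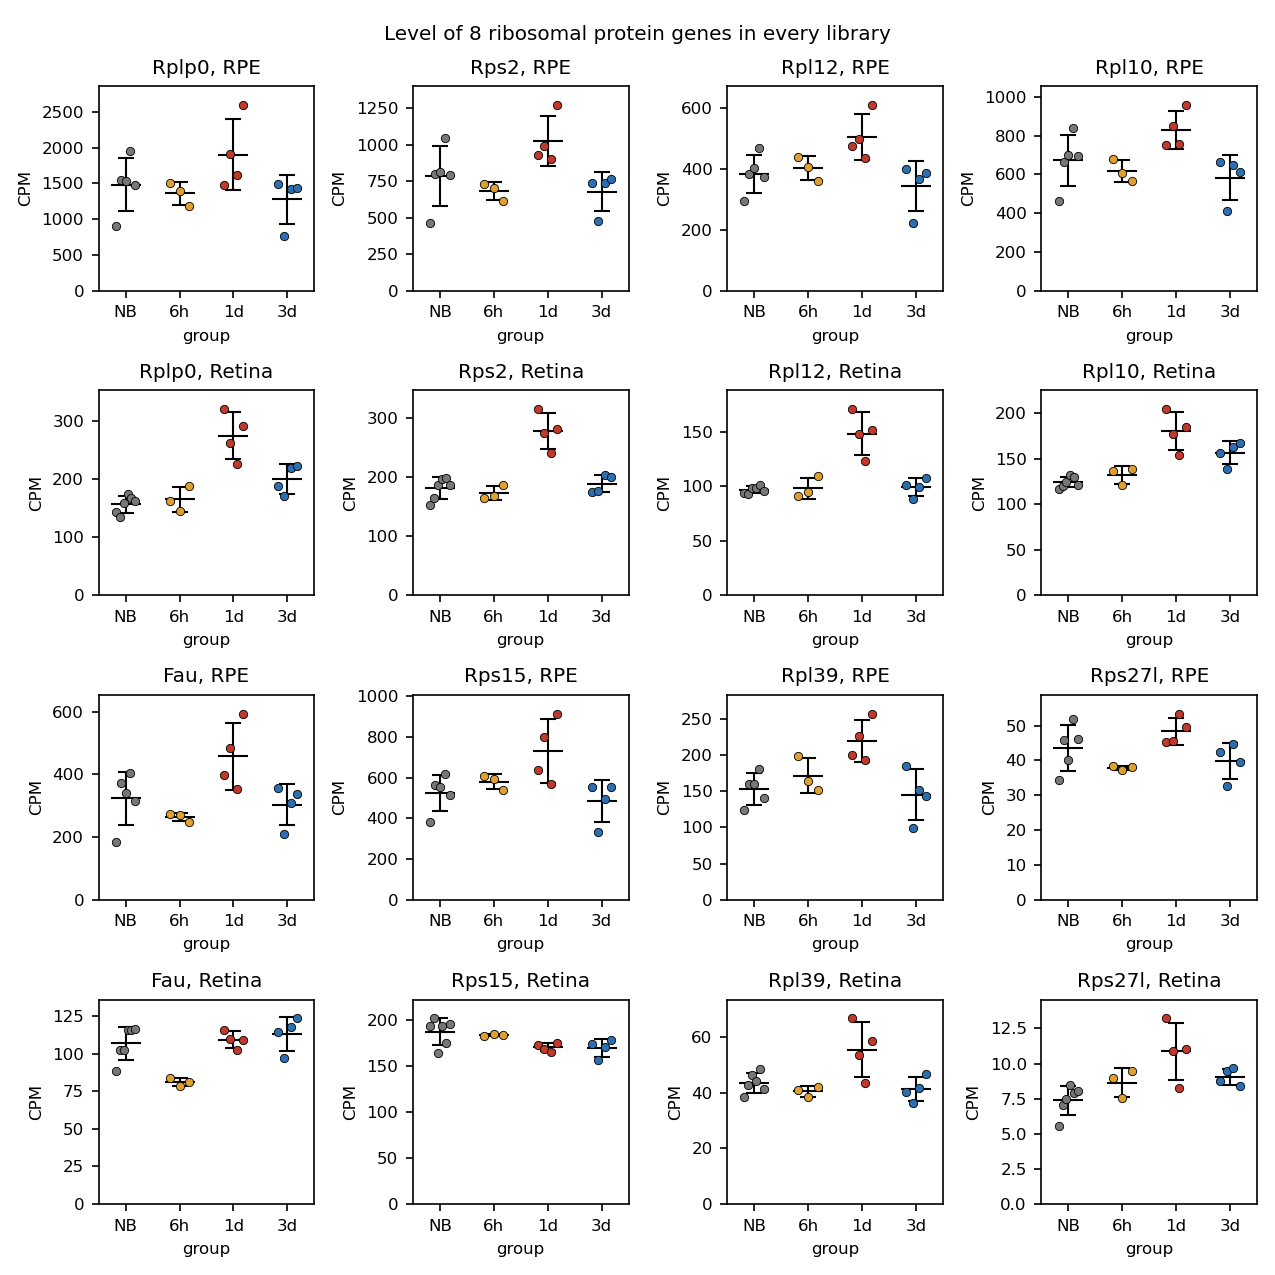
CPM of 8 ribosomal protein genes in every library (points), with mean and SD by group; RPE panels stand above the Retina panels of the same gene, and each vertical axis starts at 0. In Retina Rplp0, Rps2, Rpl12 and Rpl10 are higher in all 1d libraries than in all NB libraries, and Fau is lowest at 6h.

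Rod markers moved with these groups. Their summed CPM was 24407, 34118, 42004 and 28269 at 1d, against 77452 to 85885 in NB, 45446 to 54827 at 6h and 41468 to 47844 at 3d, and all 16 were called lower at 1d, 14 at 6h and 15 at 3d. The 1d library with the highest rod sum, 1d 3, had the lowest summed level of ribosomal protein genes, and the 1d library with the lowest rod sum, 1d 1, had the highest. The libraries with the highest rod sums at 6h and 3d, 6h 2 and 3d 2, also had the lowest summed level of their groups. Those with the lowest rod sums, 6h 1 and 3d 1, did not have the highest summed level. In NB neither the highest nor the lowest rod sum went with the opposite end of the summed level. The part of the rod shift in the rise of the ribosomal protein genes was not tested, and in bulk tissue fewer cells of a type and less RNA per cell cannot be told apart. Other marker lists were called in part. Of all genes in Retina 16.9% were called higher and 18.5% lower at 6h, 24.0% and 27.5% at 1d, and 19.3% and 23.9% at 3d. At 1d 7 of 10 endothelial markers were called higher, with a summed 632 ± 21.3 CPM at 1d and 384 to 402 CPM in NB, as were 7 of 14 of microglia and macrophages (3 lower) and 3 of 4 of red blood cells, while of 10 cone markers 7 were called lower and 3 higher, and of 10 Müller glia markers 3 lower and 4 higher. The 3 cone markers higher and the 3 Müller glia markers lower are shares near those of all genes. At 6h 10 of 15 RPE markers were called higher and 1 lower (median 0.76). Of 8 lens markers 0 were called at 1d, but their summed CPM varied widely, with 10307, 1157, 103 and 6842 in libraries 1d 1 to 1d 4. This is also the order of the summed ribosomal protein genes in these 4 libraries. Both sums shared their order at 6h too, but not at 3d or in NB. The part of these lists was not tested either. When values were scaled to library totals, the median of all genes at 1d moved to 0.15 and that of the members to 0.35, a difference of 0.20, and no member was called lower.

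By 3d in Retina most members were back near NB. Compared with NB 10 rose and 5 fell (limma, adjusted p under 0.05), where 19.3% of all genes were called higher and 23.9% lower, and the median was 0.02. Scaled to library totals the split was 46 higher and 0 lower, with the median of all genes at 0.12 and that of the members at 0.18. The share of all genes called on that scaling was not computed. Groups did not overlap for 4 members higher and 3 lower, with 13.5% and 17.7% of all genes. Rplp0 remained higher, with 188, 171, 219 and 224 CPM at 3d and 136 to 174 CPM in NB (log2 0.35, adjusted p = 0.00793, limma with Benjamini-Hochberg adjustment), as did Rpl10, with 156, 139, 162 and 168 CPM at 3d and 117 to 132 CPM in NB (0.33, adjusted p = 0.000653). The library 3d 2 was the lowest of its group for both. The other 8 were Rpl41 (0.31), Rps9 (0.21), Rps4x (0.21), Rpl18 (0.20), Rps26 (0.20), Rpl36a (0.20), Rpl37a (0.18) and Rpl31 (0.16).

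Among the 5 that fell at 3d were Rpl9, Rps15 and Rpl22. Rpl9 had 211, 205, 212 and 212 CPM at 3d, against 234, 239 and 255 CPM as the lowest, median and highest of NB, with no overlap (log2 -0.20, SE 0.04, adjusted p = 0.00124, limma with Benjamini-Hochberg adjustment). Rps15 (-0.14) and Rpl22 (-0.13), the second also a regulator of splicing of its paralogue, changed by less, and on library totals they were at 0.01 and 0.03.

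Between the later times in Retina, 32 members were lower at 3d than at 1d and 0 higher, with 11.6% of all genes called lower and 9.79% higher. At an unadjusted p under 0.05, 1 member was higher, against 2637 of all 16926 genes. edgeR and DESeq2 called 0 members higher and 32 and 35 lower. The median was -0.16, and 18 members, all lower, did not overlap, as did 11.7% of all genes. The largest changes were in Rpl32l (-0.70), at 1.05 ± 0.347 CPM at 3d and 1.99 ± 0.360 CPM at 1d and so near the filter, Rpl12 (-0.57), Rps2 (-0.55), Rplp0 (-0.46) and Rpl39 (-0.41). Rpl12 had 102, 88.6, 99.5 and 108 CPM at 3d and 171, 148, 123 and 152 CPM at 1d, and Rps2 had 175, 177, 204 and 200 CPM at 3d and 315, 275, 241 and 281 CPM at 1d, neither with overlap. Both were within 0.06 of their NB mean on the log2 scale at 3d. Of the 16 rod markers 15 were called higher at 3d than at 1d, as were 14 of 14 markers of microglia and macrophages (median 1.50), 6 of 10 of Müller glia and 7 of 10 of cones. Against NB, 12 of 14 microglia and macrophage markers (median 2.07), 9 of 10 Müller glia, 9 of 10 endothelial, 4 of 4 red blood cell and 5 of 9 fibroblast and pericyte markers were called higher at 3d, with 19.3% of all genes. The part of these in the levels of the ribosomal protein genes was not tested. The count of 32 became 18 without 1d 1 or without 3d 2, and 21 when the 2 groups were fitted alone.

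**Figure D4:**
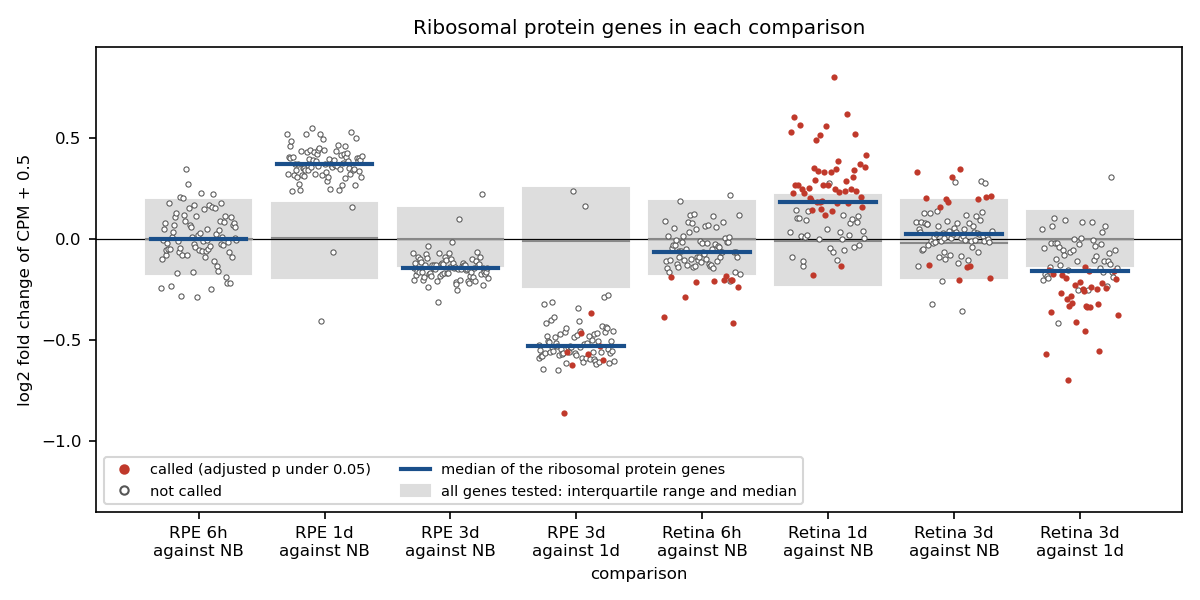
Log2 fold change of each ribosomal protein gene (points; red where the adjusted p was under 0.05) in each comparison, RPE left and Retina right, with the members' median (blue) and the median and interquartile range of all genes (grey). The points of RPE at 1d lie above 0 for 80 of 82 genes with none called, and those of Retina at 1d hold 48 called higher.

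In RPE the summed level was 32485 ± 6055 CPM in NB (SD, n = 5), 32167 ± 2277 CPM at 6h (n = 3), 41907 ± 6349 CPM at 1d (n = 4) and 29222 ± 6074 CPM at 3d (n = 4). The libraries had 38161, 42844, 36167 and 50455 CPM at 1d, against 22912 (A1), 33506, 33988, 39673 (B3) and 32347 CPM in NB. At 3d they had 33059, 20168, 31386 and 32274 CPM. The libraries NB A1 and 3d 2 were far under the rest of their groups, while NB B3 and 1d 4 were the highest of theirs. Of 82 members 80 (97.6%) had their highest group mean at 1d and 70 (85.4%) their lowest at 3d, against 29.9% and 26.8% of all 16712 genes tested.

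At 6h in RPE no member passed the test (limma, adjusted p under 0.05), with 0.808% of all genes called higher and 0.652% lower. At an unadjusted p under 0.05, 1 member was higher and 0 lower, against 1648 and 1388 of all 16712 genes. edgeR and DESeq2 also called 0 members. The median was -0.00 and 41 members lay on each side of 0. Rps15a was the 1 member whose groups did not overlap, with 318, 305 and 303 CPM at 6h and 258, 261, 262, 280 and 264 CPM in NB, where 6.7% of all genes were higher without overlap. Its log2 change was 0.22 (adjusted p = 0.265, limma with Benjamini-Hochberg adjustment). Against NB A1 alone, the 1 NB library of the same depth set, the median was 0.46.

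At 1d in RPE no member passed the test, although 80 of 82 lay above 0 and the median log2 change was 0.37. The members move together from library to library, so these 80 are not separate observations, and the summed levels of the groups overlapped, with libraries 1d 1 and 1d 3 (38161 and 36167 CPM) under NB B3 (39673 CPM). Single changes were less certain than in Retina, with a median standard error of 0.17 in RPE and 0.06 in Retina. No member was called in either direction (limma, adjusted p under 0.05), where 1.77% of all genes were called higher and 3.84% lower. At an unadjusted p under 0.05, 44 of 82 members were higher and 0 lower, against 1491 and 2122 of all 16712 genes. edgeR called 0 in either direction and DESeq2 5 higher. The groups did not overlap for 6 members, all higher at 1d, Rpl13a, Rpl32l, Rpl39, Rps13, Rps15a and Rps25, with 3.14% of all genes higher in this way. Without NB A1 and 3d 2, the libraries with the lowest levels, 4 members were called higher, Rpl39 and Rps27a among them; this alternative was chosen after the values were seen.

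Rps27a came closest, with 461, 451, 385 and 508 CPM at 1d and 236, 324, 322, 387 and 303 CPM in NB (log2 0.53, SE 0.15, adjusted p = 0.0568, limma with Benjamini-Hochberg adjustment). Library 1d 3 lay just under NB B3, and all other 1d libraries lay above NB. Rpl39 had 200, 226, 194 and 258 CPM at 1d and 124, 161, 161, 181 and 141 CPM in NB, without overlap (0.52, SE 0.16, adjusted p = 0.069). Rplp0, first in Retina, had 1482, 1910, 1615 and 2600 CPM at 1d and 898, 1548, 1539, 1946 and 1479 CPM in NB (0.37, SE 0.25, adjusted p = 0.421), and 3 of its 4 libraries at 1d lay within the NB range. Fau had 399, 484, 353 and 594 CPM at 1d and 183, 372, 342, 405 and 315 CPM in NB (0.52, adjusted p = 0.18). The 2 members below 0 were Rps10, at 3.50 ± 0.839 CPM at 1d and 3.63 ± 0.374 CPM in NB, and Rpl3l, at 1.26 ± 0.686 CPM and 2.49 ± 2.70 CPM. Rpl3l was highest in NB A1 (6.85 CPM) and 3d 2 (4.25 CPM), the libraries with the lowest summed levels of their groups.

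RPE markers also differed between these groups. Their summed CPM was 11264 to 15028 at 1d, against 17506 to 29548 in NB, with NB A1 highest, and 19061 to 34040 at 3d, with 3d 2 highest; at 6h it was 11568 to 16702. The mean was 14826 CPM at 6h, 13472 CPM at 1d and 23423 CPM in NB. The summed level of the ribosomal protein genes was 32167 CPM at 6h and 32485 CPM in NB. It was 22912 CPM in NB A1, the 1 NB library of the same depth set as 6h. Of the 16 markers 1 was called higher and 6 lower at 1d against NB, with 1.77% and 3.84% of all genes. At 3d against 1d 7 were called higher and 1 lower, with 4.92% and 1.66% of all genes. At 6h against NB 0.808% of all genes were called higher and 0.652% lower. Other lists were called in part in RPE too. At 1d 4 of 10 cone markers were higher, and 3 of 10 endothelial, 2 of 10 Müller glia and 1 of 14 microglia and macrophage markers lower. Of 16 rod markers 0 were called at 1d, and 3 of 10 cone markers were higher at 6h. At 3d against 1d 8 of 14 microglia and macrophage and 2 of 10 Müller glia markers were higher, and 2 of 10 cone markers lower. The part of all these lists in the levels of the ribosomal protein genes was not tested.

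At 3d against NB in RPE no member was called (limma), with 0.162% of all genes called higher and 0.018% lower, and 0 by edgeR and DESeq2. At an unadjusted p under 0.05, 0 members were higher and 0 lower, against 794 and 865 of all 16712 genes. The median was -0.15 and 80 of 82 lay below 0. The 3 libraries at 3d other than 3d 2 had sums between 31386 and 33059 CPM, inside the NB range, and with each library left out in turn the median ran between -0.26 and 0.02. Rplp0 had 1487, 759, 1425 and 1433 CPM at 3d, of which only library 3d 2 lay below every NB library.

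Set against 1d, the 3d libraries of RPE were lower for nearly every member. The groups did not overlap for 72 of 82, all lower at 3d, where 6.43% of all genes were lower in this way, and the median was -0.53. At an unadjusted p under 0.05, 78 members were lower, against 2104 of all 16712 genes. Of these 8 passed the adjusted threshold and 0 members were called higher (limma), with 1.66% of all genes called lower and 4.92% higher. edgeR called 6 members and DESeq2 55 lower, and both called 0 higher. The shares of all genes called by edgeR and DESeq2 were not computed. The 8 were Rpl32l (-0.86), Rpl39 (-0.62), Rps27a (-0.60), Rps13 (-0.57), Rpl36 (-0.56), Rps25 (-0.53), Rpl9 (-0.46) and Rps15a (-0.37). Rpl39 had 186, 99.8, 151 and 143 CPM at 3d and 200, 226, 194 and 258 CPM at 1d (adjusted p = 0.0383, limma with Benjamini-Hochberg adjustment), and Rps27a had 340, 210, 325 and 333 CPM at 3d and 461, 451, 385 and 508 CPM at 1d (adjusted p = 0.0402). For both, every 3d library lay under every 1d library, and 3d 2 was the lowest. The count of 8 became 0 without 1d 2, without 1d 4 or without 3d 2, 0 without NB B3 and 1d 4 together, and 0 when the 2 groups were fitted alone.

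**Figure D5:**
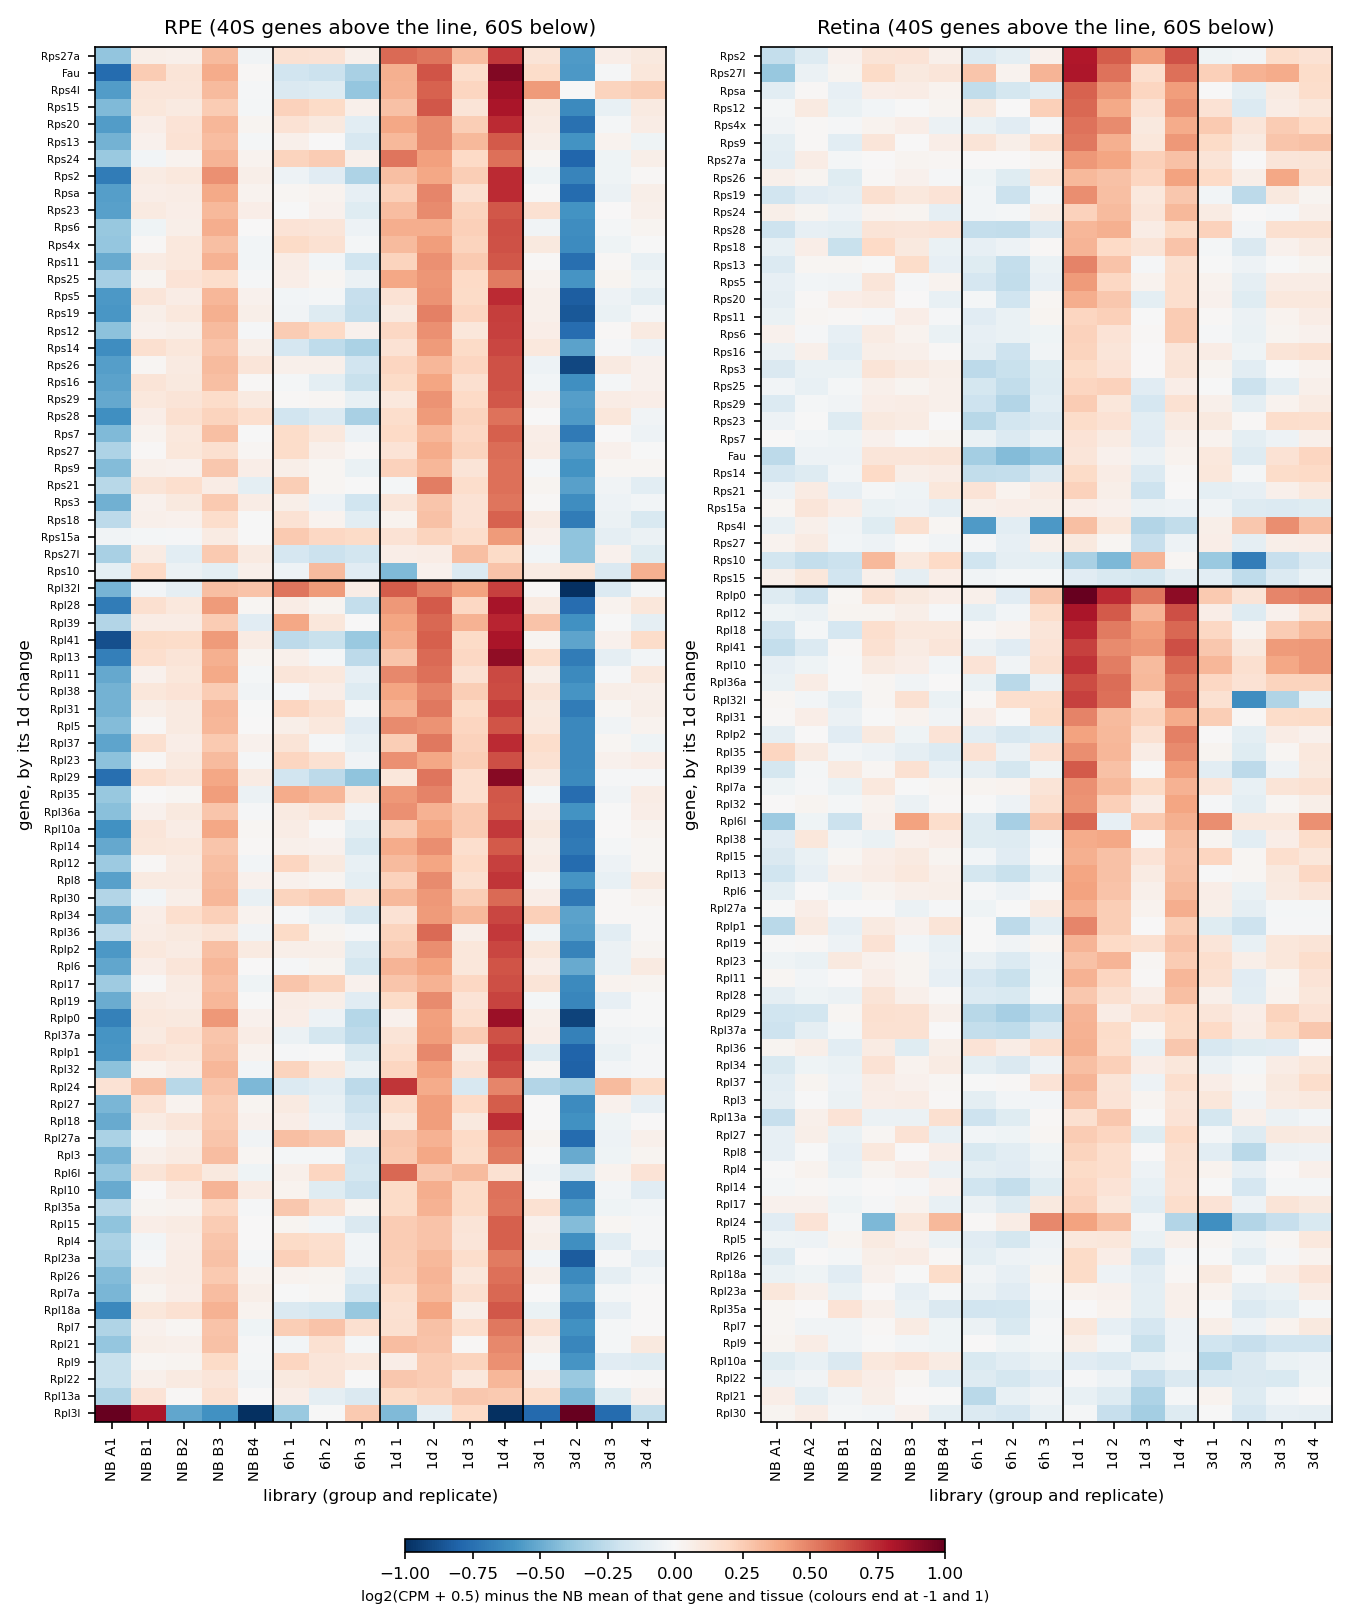
Level of the ribosomal protein genes reported here in every library, as log2(CPM + 0.5) minus the NB mean of that gene and tissue (red above, blue below, colours ending at -1 and 1), for RPE (left) and Retina (right). In RPE whole columns change colour, blue in NB A1 and 3d 2 and red at 1d, while in Retina the 1d columns are red for part of the genes.

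The test of the difference between tissues, the change in RPE minus the change in Retina, called few members. It treated the libraries of both tissues as independent, and a pairing of RPE and Retina libraries by mouse was neither checked nor modelled. Libraries 1d 3, 3d 2 and NB A1 had the lowest summed level of their groups in both tissues. At 6h the lowest was 6h 2 in Retina and 6h 3 in RPE. At 6h it called 0 (limma over 15105 genes, adjusted p under 0.05), with 9.0% of all genes called higher and 8.56% lower. At an unadjusted p under 0.05, 0 members were higher and 1 lower, against 2538 and 2175 of all genes. At 1d it called 4 higher and 0 lower, with 9.66% and 12.1% of all genes, and the median was 0.21. At an unadjusted p under 0.05, 15 of 81 members were higher and 1 lower, against 2409 and 2692 of all 15105 genes. The 4 were members that fell or lay below 0 in Retina. Rps15 changed by 0.47 in RPE and -0.13 in Retina, a difference of 0.60 (SE 0.18, adjusted p = 0.0182, limma with Benjamini-Hochberg adjustment). It had 637, 800, 568 and 915 CPM at 1d in RPE, against 382, 562, 554, 620 and 512 CPM in RPE NB, so that the RPE groups overlapped.

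Rpl30 changed by 0.39 in RPE and -0.18 in Retina (difference 0.57, SE 0.16, adjusted p = 0.00981, limma with Benjamini-Hochberg adjustment) and Rpl22 by 0.24 and -0.11 (0.35, SE 0.11, adjusted p = 0.017). None of the 4 RPE changes and only those of Rps15 and Rpl30 in Retina passed the test alone. Without RPE NB A1 and 3d 2, 11 members were called higher and 3 lower at 1d. Rplp0, with the largest rise in Retina, had a difference of -0.44 (SE 0.26, adjusted p = 0.25). At 3d the test called 1 member lower and 0 higher, with 5.93% and 6.26% of all genes, and the median was -0.17. At an unadjusted p under 0.05, 5 were lower and 0 higher, against 1777 and 2207 of all 15105 genes. That member was Rpl10, which changed by -0.20 in RPE and 0.33 in Retina (difference -0.53, SE 0.18, adjusted p = 0.0487). It had 666, 410, 647 and 611 CPM at 3d in RPE and 464, 662, 698, 836 and 697 CPM in RPE NB.

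At 1d 69 of the 81 shared members lay above 0 in both tissues. Across these genes the 1d changes in RPE and in Retina had Pearson's r = 0.25 and Spearman's rho = 0.26, and at 6h 0.34 and 0.30 and at 3d 0.08 and 0.18; genes are not independent replicates and these are descriptions. The order of the members by size of change was thus only loosely shared.

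Other genes of the translation machinery were read from lists of known function. The shares of all genes called in Retina, against which these counts stand, were 16.9% higher and 18.5% lower at 6h, 24.0% and 27.5% at 1d and 19.3% and 23.9% at 3d, and 9.79% and 11.6% at 3d against 1d. At 1d in Retina 12 of 22 other mRNAs with a TOP tract rose and 4 fell (median 0.16), among them Eef1a1, the factor that brings aminoacyl-tRNA, with 2032 ± 180 CPM at 1d and 1492 ± 73.1 CPM in NB (log2 0.44), its exchange factor subunit Eef1b2 (0.47), Npm1 (0.33) and Eif3l (0.32). Of 35 ribosome biogenesis genes 19 rose and 0 fell at 1d (median 0.18). Fbl, the rRNA methyltransferase, had 37.5 ± 2.32 CPM at 1d and 26.1 ± 1.44 CPM in NB (0.52), and Nhp2 (0.66), Rrp12 (0.46) and Nop14 (0.34) were also called higher. At 6h 10 of the 35 were called higher and 1 lower. At 3d 0 were higher and 9 lower against NB, and the 9 are a share near the 23.9% of all genes; against 1d 0 were higher and 23 lower.

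Among 26 regulators of ribosomal protein synthesis 6 rose and 9 fell at 1d in Retina (median -0.03), shares near those of all genes at 1d. Myc, which drives transcription of ribosome genes, was at 6.61 ± 2.90 CPM at 1d and 0.722 ± 0.394 CPM in NB (log2 2.52), and Eif4ebp1, a translation repressor that mTORC1 phosphorylates, at 7.07 ± 1.99 CPM and 1.38 ± 0.674 CPM (2.04). Akt1s1, an mTORC1 inhibitor, rose by 0.62. Of 12 genes of the ribosome checkpoint and p53 pathway 7 rose and 2 fell, with the p53 targets Cdkn1a at 11.5 ± 1.58 CPM at 1d and 2.20 ± 0.516 CPM in NB (2.17) and Phlda3 (1.69), p53 itself, Trp53 (1.03), and Sesn1 (-0.52). Of 16 ribosome quality control genes 2 rose and 5 fell (median 0.00), the 2 a smaller share than that of all genes and the 5 near it, among them Ankzf1 (-0.66), Nemf (-0.41), Gtpbp2 (-0.35) and Ltn1 (-0.21), which act on stalled ribosomes or the chains left on them. Of 77 mitochondrial ribosomal protein genes 9 rose and 13 fell at 1d (median -0.00), both under the shares of all genes, and 1 rose and 29 fell at 6h (median -0.15).

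In RPE at 1d, where 1.77% of all genes were called higher and 3.84% lower, the same lists gave few calls, with 0 of 22 other TOP mRNAs (median 0.27), 1 biogenesis gene higher (Rrp12, 0.45) and 1 lower (Polr1a, the largest subunit of RNA polymerase I, -0.84), 0 of 13 checkpoint genes, and 4 mitochondrial ribosomal protein genes higher and 0 lower (median 0.13). Of the regulators 0 rose and 5 fell at 1d in RPE. Mtor, the kinase itself, was at 81.8 ± 7.25 CPM at 1d and 130 ± 13.6 CPM in NB (log2 -0.67), and Sesn3 (-1.05), Deptor (-0.79) and Mxd4 (-0.60) were also lower. Of paralogues outside the naming rule, Rpl22l1 rose in RPE, with 71.7 ± 3.60 CPM at 1d and 49.9 ± 8.64 CPM in NB (0.54), and Rpl7l1 rose in Retina (0.48).

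Pseudogenes of ribosomal proteins were measured beside the members. Their summed level in RPE averaged 790 CPM in NB, 965 at 6h, 1021 at 1d and 750 at 3d, and in Retina 222, 251, 265 and 233 CPM. At 1d 0 of 119 pseudogenes were called in RPE (median 0.35), and in Retina 16 of 79 were called higher and 3 lower (median 0.21), where 24.0% of all genes were called higher and 27.5% lower, so that the called shares lie under the background. At 6h the pseudogenes had medians of 0.24 in RPE and 0.13 in Retina, and the members had medians of -0.00 and -0.06. These 6h values cross depth sets. In Retina the pseudogene sums were 230 to 273 CPM at 6h, 245 and 251 CPM in the deeper NB A1 and A2, and 200 to 223 CPM in NB B1 to B4. In RPE they were 850 to 1036 CPM at 6h, 646 CPM in the deeper NB A1 and 755 to 912 CPM in NB B1 to B4. The sources used here do not say how reads shared by a gene and its pseudogenes were assigned, and the part of shared reads in these values was not tested.

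Members with and without a tract near the annotated start were set side by side. The counts called in Retina at 1d stand against 24.0% of all genes called higher and 27.5% lower. At 1d in Retina the 43 members with a tract had a median log2 change of 0.23, with 28 higher and 1 lower, and the 16 without, Rpl12, Rpl41 and Rpl10 among them, one of 0.24, with 10 higher and 0 lower. In RPE the medians were 0.37 and 0.35. Members with the ETS core had a median of 0.26 at 1d in Retina (24 genes, 19 higher and 0 lower) and those without it 0.19 (35 genes, 19 higher and 1 lower). The 10 members with the YY1 core had a median of 0.04, with 2 higher and 0 lower, and the 49 without it one of 0.25, with 36 higher and 1 lower; in RPE these medians were 0.32 and 0.39. These splits were made after earlier results of the data were known and carry no test. The tract split rests on annotated starts, so it does not show which mRNAs begin with a tract. Rplp0, with a TATA box that begins 17 bases after its annotated start, counts as without. Rps2 and Rps15, with tracts that begin 27 bases after and 19 bases before theirs, count as with.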

How the data were processed

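RNA libraries of RPE and Retina were analysed; the members and all gene lists were chosen with earlier results of these data known. The submitters' processing notes name Trimmomatic, STAR, edgeR and the GRCm38 build; versions and the read counter are not given in the sources used here. The deposited signal values are, per the file headers, CPM for which the authors took effective library sizes, so column sums differ between libraries; all were whole multiples of 1 read within 0.01 reads, and reads were recovered from that step. The deposited log2 fold changes and the deposited p-value of each gene were made by the authors per time against NB. NB columns match the group, not single samples.

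Genes that reached 1 CPM in 3 or more libraries were fitted as log2(CPM + 0.5) with limma 3.58.1 (trend, all groups of a tissue, two-sided, Benjamini-Hochberg adjustment over all genes, threshold 0.05) in R 4.3.3; fold changes on this scale understate those of low genes. The tissue difference used 1 fit over both tables, with no pairing of RPE and Retina libraries. Alternatives were edgeR 4.0.16 and DESeq2 1.42.0 on recovered reads, other offsets, scaling, filter, library sets and each library left out. Shares of all genes called were computed for the main fits only, so counts of members under alternatives have no such share beside them. The fits were tested on simulated data, where fold sizes were recovered in both tissues but far fewer of the smaller changes were called in RPE than in Retina. Members named were, for each comparison, up to 5 called with the largest change in each direction (4 for the tissue difference), those with a known role and those nearest the filter; the clause on CPM per kb was not applied, and other members were chosen after their values were seen. Replicate numbers of 1d and 3d did not pair the libraries. ATAC libraries were not analysed here. Single results of some members are not reported here; counts and sums include them.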

Additional observations from a re-analysis of the deposited data

Results flagged for a closer look

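In 225 groups of 4 to 10 libraries checked, each for 1 gene or sum, a library stood apart from the rest of its group 15 times. Chance flags about 1 in 20 groups if they are independent. Here the members move together, and most of the 15 flags came from RPE library 3d 2, so they are not separate events. RPE library 3d 2 was the lowest of the 3d group and apart from it for the summed level (20168 CPM) and for Rplp0 (759 CPM), Rpl3 (498 CPM), Rps2 (479.7 CPM), Rps9 (377 CPM), Rps3 (361 CPM), Rps6 (277 CPM), Rpl18 (238 CPM), Rps27a (210.0 CPM), Rpl29 (206 CPM), Rpl37a (175 CPM) and Rpl30 (164 CPM), and it was the highest for Rpl3l (4.25 CPM). It was also the RPE library with the highest summed RPE markers (34040 CPM), the part of which was not tested. In Retina at 3d, library 3d 2 was lowest for Rps27a (138 CPM), and 3d 4 was highest for Rpl22 (101.5 CPM).

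The change against NB differed between RPE and Retina for the following members at an adjusted p under 0.05 in limma's test of the difference. At 1d the differences, RPE minus Retina, were 0.60 for Rps15, 0.57 for Rpl30 and 0.35 for Rpl22 on the log2 scale. At 3d the difference was -0.53 for Rpl10.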

How the results depend on the processing

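Over 33 results that answer a comparison, 609 of 690 values under other settings stayed within 1.5 times the count or 1 SD of the median. For named members 8042 values kept direction and side of the threshold, 187 lost the call, 125 gained it and 4 reversed, all on library totals: Rps15 in Retina at 1d (0.036) and, at 3d, Rps15 (0.013), Rpl22 (0.026) and Rps6 (0.15). The cause was not tested where none is given below. Scaled to library totals, members lower were 6 in Retina at 6h and 0 at 1d (median 0.35), 46 rose and 0 fell at 3d (median 0.18), 2 rose in RPE at 1d, and the tissue difference called 2 higher and 2 lower at 1d and 3 lower at 3d. Against NB libraries of the same depth set (fewer libraries), 1 rose and 0 fell in Retina at 6h, the medians at 6h were 0.46 in RPE and 0.51 for the tissue difference, which called 2 higher at 1d and 4 lower at 3d. DESeq2 called 1 lower in Retina at 1d and 2 at 3d, 5 higher in RPE at 1d and 55 lower in RPE at 3d against 1d. With the 2 groups alone (fewer libraries), 1 fell in Retina at 1d, 21 at 3d against 1d, and 0 in RPE at 3d against 1d. Without RPE NB A1 and 3d 2, chosen after seeing the data, 2 were lower in RPE at 6h, 4 higher at 1d, and the tissue difference called 3 lower at 6h, 11 higher and 3 lower at 1d and 2 lower at 3d; without NB B3 and 1d 4, 0 were lower in RPE at 3d against 1d and 0 in the tissue difference at 3d. With the replicate block, 22 were lower in Retina and 0 in RPE at 3d against 1d; same-numbered libraries deviated together with correlations of -0.04 to 0.16 in RPE and -0.32 to 0.23 in Retina, so the numbers do not pair them, and NB libraries carry no number to pair.

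With each library left out in turn, members called lower in Retina numbered 4 to 16 at 6h (4 without 6h 1, 6 without 6h 2, 7 without NB B2 or B3), 1 to 3 at 1d, 2 to 5 at 3d and 18 to 46 at 3d against 1d, and those called higher 37 to 56 at 1d, 6 to 14 at 3d and 0 to 1 at 3d against 1d; the medians ran from -0.10 to -0.05 at 6h, 0.14 to 0.24 at 1d, -0.00 to 0.06 at 3d and -0.21 to -0.11 at 3d against 1d. In RPE 0 to 3 were higher at 1d and 0 to 11 lower at 3d against 1d, and the medians ran from -0.12 to 0.07 at 6h, 0.25 to 0.45 at 1d, -0.26 to 0.02 at 3d and -0.60 to -0.36 at 3d against 1d. The tissue difference called 0 to 1 lower at 6h (medians -0.03 to 0.17), 2 to 12 higher and 0 to 1 lower at 1d (medians 0.09 to 0.27; 12 without RPE NB B3, 7 without RPE 1d 1 or 1d 3, 2 without RPE 1d 4), and 0 to 12 lower at 3d (medians -0.30 to -0.00; 12 without RPE NB A1). Rpl24, Rpl32l and Rpl3l had the fewest reads, and their changes are the least precise.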
